A study of Homo sapiens with 12 samples.

Results

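The established Hodgkin lymphoma lines L-428 and L-1236 were compared in the state they had before EBF1 was introduced. The comparison rests on 6 of the 12 arrays of the series: 3 arrays of L-428 tGFP and 3 of L-1236 tGFP, chosen by the cell line and transduction that the labels give. Cells of both lines came from the DSMZ collection and were transduced with a tGFP-only vector, which encodes a green fluorescent protein and no EBF1. They were then cultured for 8 days and sorted for tGFP, so that the cells compared here had all taken up the vector and been through the sorter. The other 6 arrays, of the same lines transduced with tGFP and EBF1, enter only the shared estimate of the spread and a later comparison. The series design text calls the 3 arrays of a group independent samples, and whether they came from separate transductions is not stated, so p-values measure the spread between these samples. Each line is a single culture descended from 1 tumour, and a difference between them is a difference between these 2 lines.

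Hodgkin and Reed-Sternberg cells, the tumour cells of classical Hodgkin lymphoma, descend from germinal centre B cells but have switched off much of the B-cell programme. PAX5 usually stays on at a reduced level, while surface immunoglobulin components and MS4A1 (CD20) are weak or lost, and genes of T cells, myeloid cells and dendritic cells appear in varying mixtures. Survival of these cells is known to rest on NF-kappaB, JAK-STAT and PI3K signalling, and many silenced genes of the B-cell programme carry DNA methylation at their promoters.

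Values are log2 signals, so a difference of 1 is a 2-fold difference. Array medians lay between 7.19 and 7.30 in both lines. The 350 rows of olfactory receptors, genes that lymphocytes are not known to use, served as a floor: their 95th percentile lay between 6.86 and 7.08 on the 6 arrays, and a gene whose 3 arrays in a line all lay at or below it is described as in the olfactory range. No detection calls were used here, and a fold against a line in that range compares a signal with the floor and may understate the difference in RNA. Correlations over rows were 0.995 to 0.998 between arrays of 1 line and 0.919 to 0.923 between the lines. Replicate 3 of L-428 stood apart from the others of its line, with an interquartile range of 2.28 against 2.49 and 2.47. The L-1236 arrays had 2.28, 2.30 and 2.31, so replicates 1 and 2 of L-428 were wider than every L-1236 array. Whether this came from the lines or from the scaling cannot be told apart. After quantile normalization, which removes it, 52.2% of calls were higher in L-428 in place of 57.8%.

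The 4 genes given as markers of the lines, LRRN3, PIK3CG, SULF1 and AOAH, differed between them. All 4 are among the largest differences of this same comparison, so they are not a separate check of the labels. Of 9 Hodgkin and Reed-Sternberg markers, among them TNFRSF8 (CD30), FUT4 (CD15) and FSCN1, all 9 lay above the olfactory range in at least 1 line. Of the B-cell markers with a row of their own, MS4A1 lay in that range in both lines at 5.79 to 5.96. The mean over 6 B-cell markers differed between the lines, at 6.83, 6.83 and 6.95 in L-428 and 7.83, 7.72 and 7.71 in L-1236. The gap lay in 3 of them, CD22, PAX5 and POU2AF1, with log2 differences of -2.53, -1.84 and -0.85. CD79A, CD79B and MS4A1 differed by -0.04, -0.08 and 0.03. EBF1, left out because its row lists a second gene, was 1.27 higher in L-428. Markers of T cells were in the olfactory range for 5 of 6 genes (CD3D, CD3E, CD3G, CD2 and CD5), and so were ITGAM, LYZ and MPO among the myeloid markers, CDH5 and VWF among the endothelial markers and EPCAM among the epithelial ones. Other markers of these cell types exceeded the range on at least 1 of the 6 arrays. They were CD247, the NK marker NKG7, CD14, CSF1R, PECAM1, KRT8, KRT18 and CDH1. Among stromal markers COL1A1, COL1A2, COL3A1 and PDGFRB did so too, and DCN did not.

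Of 20546 rows with a gene symbol, 1479 differed by at least 2-fold at an adjusted p of 0.05 or less in limma, which is 7.20% of the rows tested. L-428 was higher in 855 of them (4.16%) and L-1236 in 624 (3.04%). With 1 row per gene, the brightest, 1328 of 18404 genes were called (7.22%), 766 higher in L-428 (4.16%) and 562 higher in L-1236 (3.05%). These last shares are the background against which each gene group below is read. The adjusted p alone passed 9836 rows (47.9%), so the 2-fold limit and not the p decided most calls. RNA was taken from whole sorted cultures, so fewer cells expressing a gene and less RNA of it per cell cannot be told apart. The 6 arrays did not overlap in any of the 1479 called rows, but they did not overlap in 52.8% of all rows either. At least 4-fold differences were found in 167 rows higher in L-428 and 154 higher in L-1236, and at least 16-fold differences in 19 and 18.

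**Figure D1:**
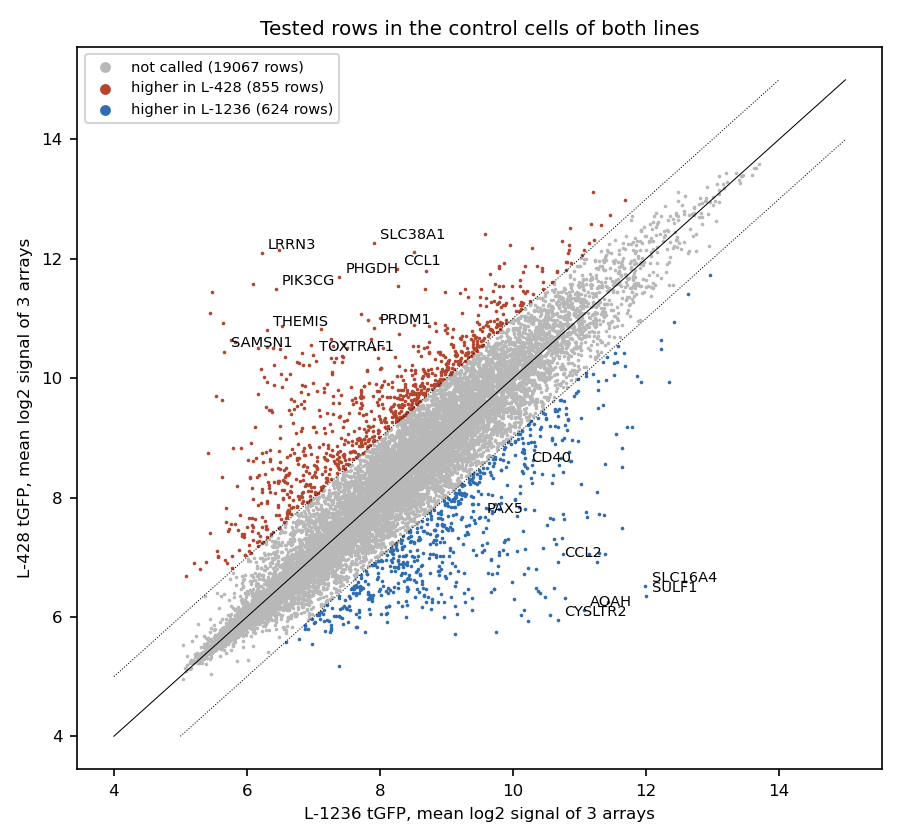
Mean log2 signal of each tested row on the 3 L-1236 tGFP arrays (x axis) and the 3 L-428 tGFP arrays (y axis). The solid line marks equality, the dotted lines a 2-fold difference; 855 rows are coloured as higher in L-428 and 624 as higher in L-1236, and the labelled genes at the edges read near 6 in one line and above 10 in the other.

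A share of the differences ran from the floor to a high signal. L-1236 lay in the olfactory range for 194 of the 766 genes that were higher in L-428 (25.3%), and L-428 for 196 of the 562 that were higher in L-1236 (34.9%). In 184 and 181 of these the other line lay above the range on all 3 arrays. LRRN3, PIK3CG, SULF1 and AOAH are of this kind, and the promoters of 3 of them are shown so that their CG content can be read beside the values. Windows run from 250 bases before to 50 bases after the RefSeq transcript start in GRCh38.p14, 5′ to 3′ on the gene's strand, with each CG dinucleotide, the site of DNA methylation, in capitals. LRRN3 (chr7:111090877-111091176, plus strand) holds 5 CG, PIK3CG (chr7:106865229-106865528, plus strand) 8, and AOAH (chr7:36724445-36724744, minus strand) 5. PHGDH (chr1:119711684-119711983, plus strand), a metabolic gene described further on that differed 19.8-fold and whose L-1236 arrays lay above the olfactory range, is set beside them with 15 CG.
LRRN3: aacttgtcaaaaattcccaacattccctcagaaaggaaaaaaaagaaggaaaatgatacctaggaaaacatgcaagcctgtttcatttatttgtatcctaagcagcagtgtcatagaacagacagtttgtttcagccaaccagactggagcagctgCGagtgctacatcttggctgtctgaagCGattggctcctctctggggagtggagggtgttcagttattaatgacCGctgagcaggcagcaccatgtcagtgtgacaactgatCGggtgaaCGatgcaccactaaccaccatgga
PIK3CG: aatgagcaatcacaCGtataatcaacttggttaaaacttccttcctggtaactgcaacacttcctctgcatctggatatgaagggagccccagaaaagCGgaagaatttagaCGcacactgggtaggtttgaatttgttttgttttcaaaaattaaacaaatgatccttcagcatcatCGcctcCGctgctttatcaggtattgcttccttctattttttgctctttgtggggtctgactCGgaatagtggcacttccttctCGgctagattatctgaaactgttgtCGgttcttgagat
AOAH: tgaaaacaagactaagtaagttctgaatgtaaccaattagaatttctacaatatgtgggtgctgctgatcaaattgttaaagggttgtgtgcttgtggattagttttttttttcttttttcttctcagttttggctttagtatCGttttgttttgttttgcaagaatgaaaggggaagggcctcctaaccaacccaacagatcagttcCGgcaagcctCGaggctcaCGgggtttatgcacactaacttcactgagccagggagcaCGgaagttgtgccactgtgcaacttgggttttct
PHGDH: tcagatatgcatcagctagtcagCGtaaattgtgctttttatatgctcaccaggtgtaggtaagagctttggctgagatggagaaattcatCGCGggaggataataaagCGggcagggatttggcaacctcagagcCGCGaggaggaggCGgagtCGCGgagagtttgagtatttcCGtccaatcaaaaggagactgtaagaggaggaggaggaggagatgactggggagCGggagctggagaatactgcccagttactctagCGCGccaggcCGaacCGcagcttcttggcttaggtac

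LRRN3 encodes a leucine-rich repeat membrane protein known from neurons. Its row read 12.11, 12.22 and 11.96 on the L-428 arrays and 6.46, 6.11 and 6.10 on the L-1236 arrays. L-1236 lay in the olfactory range and L-428 among the bright rows of the array, a 58.6-fold difference (log2 5.87 ± 0.0947 SE, limma adjusted p = 4.13e-19). PIK3CG, the catalytic gamma subunit of phosphoinositide 3-kinase that acts downstream of G-protein-coupled receptors in leukocytes, read 11.64, 11.63 and 11.21 in L-428 and 6.36, 6.45 and 6.50 in L-1236. The difference was 33.3-fold (log2 5.06 ± 0.0905 SE, limma adjusted p = 1.69e-18), and the lowest L-428 array stood far above the highest L-1236 array.

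The opposite direction was led by SULF1, an extracellular enzyme that removes sulfate groups from heparan sulfate. It read 6.43, 6.25 and 6.37 in L-428 and 12.02, 11.95 and 12.02 in L-1236, a 50.2-fold difference (log2 -5.65 ± 0.0746 SE, limma adjusted p = 3.87e-20). AOAH, the lipase that detoxifies bacterial lipopolysaccharide in myeloid cells, read 5.95, 6.20 and 6.20 in L-428 and 11.04, 11.06 and 11.11 in L-1236. Its 31.0-fold difference (limma adjusted p = 1.78e-18) again separated a line in the olfactory range from one with a strong signal.

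Apart from snoRNA rows, the next genes higher in L-428 were FAM9C, a testis gene of the X chromosome (39.2-fold), SAMSN1, an adaptor that dampens B-cell activation (27.6-fold), and THEMIS, a T-cell gene required for selection in the thymus (22.8-fold). SAMSN1 read 10.52, 10.48 and 10.34 in L-428 and 5.63, 5.71 and 5.63 in L-1236. THEMIS read 10.86, 10.87 and 10.71 against 6.39, 6.28 and 6.23. In both, L-1236 was in the olfactory range on every array. The glutamine carrier SLC38A1 (20.5-fold), the antisense transcript DIAPH2-AS1 (20.3-fold) and the potassium channel KCNH7 (20.3-fold) followed.

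On the L-1236 side stood SLC16A4, a member of the monocarboxylate carrier family (44.6-fold), FCER1A, the alpha chain of the high-affinity IgE receptor of mast cells and dendritic cells (36.1-fold), and the leukotriene receptor CYSLTR2 (26.7-fold). FCER1A read 6.24, 6.22 and 6.28 in L-428 and 11.38, 11.46 and 11.43 in L-1236. GNAQ, the alpha subunit of the G protein that couples many receptors to phospholipase C, read 6.10, 5.93 and 6.07 against 10.39, 10.67 and 10.59. It was 23.0-fold higher in L-1236, and its other row differed by -4.05 on the log2 scale. Galactose mutarotase GALM (22.1-fold), the lipoxygenase ALOX15 (20.3-fold), the centrosomal gene CEP15 (19.6-fold), the plasminogen activator PLAT (18.7-fold), the interleukin-1 receptor IL1R1 (17.6-fold) and the exporter SLC47A1 (17.6-fold) completed the 12 largest. L-428 lay in the olfactory range for 10 of these 12 genes; ALOX15 and PLAT exceeded it there on at least 1 array, at 7.18 and 7.29 on replicate 3.

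**Figure D2:**
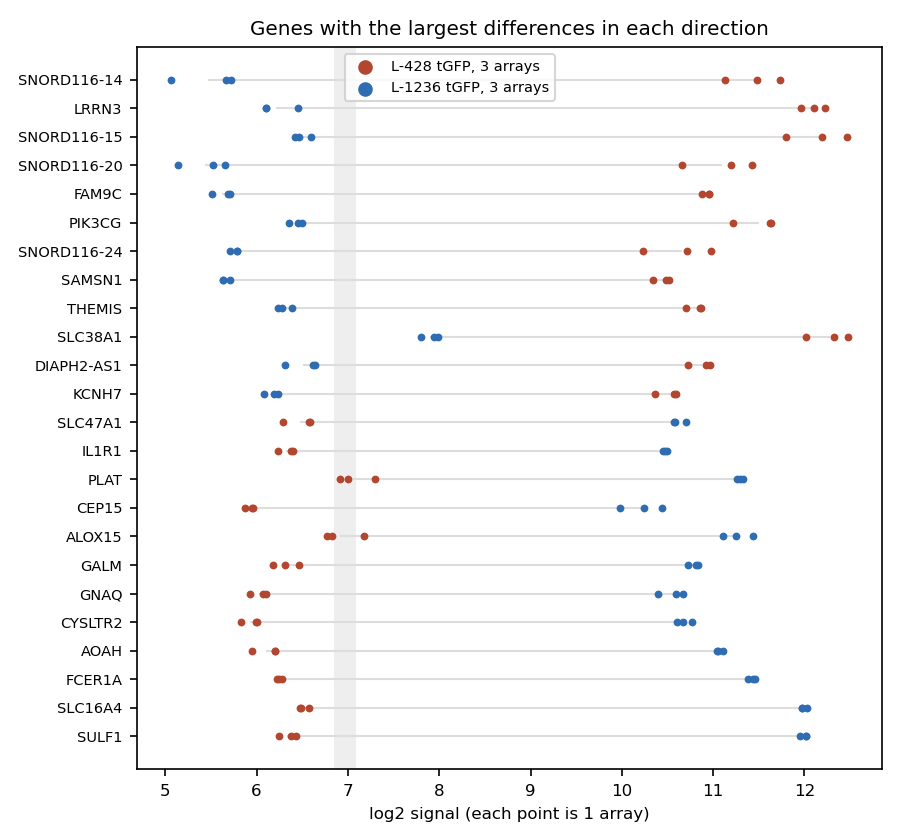
Log2 signal on each array (x axis) for the 12 genes with the largest differences in each direction (rows); each point is 1 array, and the shaded band spans the 95th percentiles of the olfactory receptor rows, 6.86 to 7.08. In SNORD116-14, LRRN3 and the other rows at the top the 3 L-428 points lie to the right, in SULF1 and the rows at the bottom the 3 L-1236 points do, and only SLC38A1 has its low line wholly above the band.

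B-cell genes differed in both directions. Of 49 measured B-cell receptor and surface genes, 23 lay in the olfactory range in both lines; 3 were higher in L-428 and 4 in L-1236. The inhibitory receptor CD22 read 6.37, 6.34 and 6.42 in L-428, within the olfactory range, and 9.04, 8.90 and 8.79 in L-1236 (5.79-fold, limma adjusted p = 1.07e-15). FCER2 (CD23), the low-affinity IgE receptor of activated B cells, read 8.47, 8.52 and 8.29 against 10.77, 10.79 and 10.69 (5.00-fold). CD40, which receives help from T cells, read 8.59, 8.59 and 8.40 against 10.14, 10.15 and 10.25 (3.15-fold). CD24 (2.99-fold), the tetraspanin CD53 (2.39-fold) and the activation marker CD83 (2.09-fold) went the other way. The receptor signalling chains CD79A and CD79B differed by -0.04 and -0.08 on the log2 scale (limma adjusted p = 0.639 and 0.316), with arrays of the 2 lines overlapping between 6.84 and 7.07.

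Among 27 B-cell transcription factors, 5 were higher in L-428 (18.5%) and 2 in L-1236 (7.41%). PAX5, the factor that maintains B-cell identity, read 7.65, 7.70 and 7.68 in L-428 and 9.53, 9.47 and 9.54 in L-1236, a 3.57-fold difference (log2 -1.84 ± 0.0605 SE, limma adjusted p = 6.69e-15). ETS1 was 2.72-fold higher in L-1236. RUNX1 (4.25-fold), IRF8 (3.44-fold), IKZF3 (2.70-fold), BCL6 (2.34-fold) and MEF2C (2.31-fold) were the 5 higher in L-428. BCL6, the germinal centre repressor, read 8.59, 8.78 and 8.48 in L-428 and 7.48, 7.24 and 7.45 in L-1236. EBF1 itself, whose row is not among the 27 because it lists a second gene, read 8.63, 8.37 and 8.34 against 7.24, 7.13 and 7.16. IRF4, POU2F2, SPI1 and the E-protein inhibitor ID2 did not reach 2-fold, with log2 differences of 0.16, -0.07, 0.09 and 0.44, and the OCT co-activator POU2AF1, 1.81-fold higher in L-1236, also stayed below it.

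Of 18 plasma cell genes, PRDM1 and CAV1 were higher in L-428 (11.1%) and CD27 in L-1236 (5.56%), with a median log2 difference of 0.07. PRDM1, the repressor that drives plasma cell differentiation and opposes PAX5 and BCL6, differed the most of these called genes. It read 10.98, 10.95 and 10.60 in L-428 and 7.86, 7.87 and 7.98 in L-1236 (7.65-fold, limma adjusted p = 6.07e-16). The line with more PAX5 thus had less PRDM1, while BCL6 and PRDM1 were both higher in L-428. Germinal centre genes split: MYBL1 was higher in L-428 (6.93-fold), and RGS13 (6.16-fold), the calcium regulator ITPKB (4.95-fold), BASP1 (2.79-fold) and GCSAM (2.60-fold) were higher in L-1236, 2 and 4 of 24 in all. Of 16 E-protein inhibitors and T-lineage factors, 3 were higher in L-428: THEMIS, the HMG-box factor TOX, and MSC (ABF-1), a repressor of E-protein activity. TOX read 10.44, 10.57 and 10.16 in L-428 and 7.08, 6.97 and 6.93 in L-1236 (10.5-fold). EOMES was 2.16-fold higher in L-1236.

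T-cell, myeloid and neural genes were called in both directions. The shares higher in L-428 and in L-1236 were 5% and 5% for T- and NK-cell genes. They were 6.52% and 8.70% for myeloid and dendritic cell genes and 13.5% and 10.8% for neural genes. Over all genes they were 4.16% and 3.05%, so the T- and NK-cell shares were near the background. Of 40 T- and NK-cell genes, 22 were in the olfactory range in both lines, IL2RB (3.62-fold) and the kinase FYN (2.63-fold) were higher in L-428, and SLAMF1 (8.82-fold) and CD4 (3.40-fold) in L-1236. Of 46 myeloid and dendritic cell genes, 27 were in the range in both. FCER1A, AOAH, FCGR2A and CSF2RB were higher in L-1236, and CD68, NCF4 and ITGAX in L-428, the last 2.03-fold and lost without replicate 1 or 2 of L-428 or replicate 3 of L-1236. FCGR2A, an activating Fc receptor, read 5.97, 5.63 and 5.65 in L-428 and 9.67, 9.79 and 9.78 in L-1236. PECAM1 (CD31) was 5.78-fold higher in L-1236, with a second row at -1.43 on the log2 scale, whereas the other endothelial markers CDH5 and VWF were at the floor. Neural genes went both ways, 5 and 4 of 37, with CNTN1 (6.62-fold) and PCP4 (5.30-fold) next to LRRN3 in L-428, and SNAP25 (6.53-fold) and NCAM2 (4.63-fold) in L-1236. None of 15 erythroid and megakaryocyte genes was called in limma, and both the unadjusted p under 0.05 and the adjusted p alone passed 3 of them, EPOR and ITGB3 among them at log2 differences of 0.37 and 0.33.

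Of 42 measured genes that mark Hodgkin and Reed-Sternberg cells, 7 were higher in L-428 (16.7%) and 11 in L-1236 (26.2%), beside 4.16% and 3.05% over all genes. TNFRSF8 (CD30), the diagnostic receptor, read 10.46, 10.47 and 10.20 in L-428 and 9.57, 9.59 and 9.55 in L-1236, 1.75-fold and so below the limit. TRAF1, an adaptor of TNF receptors, read 10.37, 10.63 and 10.14 against 7.69, 7.44 and 7.15 (7.74-fold, limma adjusted p = 7.62e-14). CCL5 (4.25-fold), IL5 (3.29-fold), LGALS1 (2.79-fold), CD70 (2.63-fold), FSCN1 (2.37-fold) and CCL17 (TARC, 2.07-fold) were also higher in L-428. In L-1236 the adhesion receptor CD44 was higher, at 11.75, 11.69 and 11.71 against 9.29, 9.25 and 8.99 (5.81-fold), together with lymphotoxin alpha LTA (5.29-fold), IL6 (4.68-fold), TNFRSF9 (4.13-fold), CD274 (4.10-fold) and CD40. CCL17 lost its call without replicate 1 of L-1236, at 0.99 on the log2 scale.

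Of 20 MHC class II and antigen processing genes, 7 were higher in L-428 (35%) and 2 in L-1236 (10%), with a median log2 difference of 0.41 against -0.00346 over all genes. HLA-DPB1 read 12.58, 12.71 and 12.26 in L-428 and 10.94, 10.82 and 10.83 in L-1236 (3.14-fold, with 2 other rows at 1.01 and 1.27 on the log2 scale). HLA-DOA (3.46-fold), the proteases LGMN (3.36-fold) and CTSS (2.67-fold), HLA-DMA (2.42-fold) and HLA-DMB (2.22-fold) went the same way. HLA-DQA1 (3.50-fold) and HLA-DOB (2.99-fold) were higher in L-1236. CIITA, the master activator of these genes, read 8.67, 8.60 and 8.65 against 7.89, 7.89 and 7.81, which passed the adjusted p at 1.71-fold. The second row of HLA-DMA differed the other way, by -0.39 on the log2 scale, and HLA genes vary in sequence and have near-identical copies, so their levels are less certain than others. Of 21 class I genes, 3 were higher in L-428 and 2 in L-1236; the median difference was -0.36, and the adjusted p alone passed 7 higher in L-428 and 11 higher in L-1236. Among the calls were the stress ligands ULBP1 (2.13-fold) and ULBP3 (2.12-fold), higher in L-428, and the trimming peptidase ERAP2 (3.42-fold), higher in L-1236.

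The checkpoint ligands CD274 (PD-L1) and PDCD1LG2 (PD-L2), neighbours on the short arm of a chromosome that is often gained in Hodgkin lymphoma, were both higher in L-1236. CD274 read 8.31, 8.22 and 8.22 in L-428 and 10.30, 10.21 and 10.34 in L-1236 (limma adjusted p = 7.13e-15), and PDCD1LG2 was 2.67-fold higher. Of 26 B7 family and checkpoint genes, 3 were higher in L-428 and 4 in L-1236. The tryptophan enzyme IDO1 (3.26-fold), the complement inhibitor CD59 (3.20-fold) and the anti-phagocytic ligand CD47 (2.94-fold) were the 3, and LGALS9 (4.28-fold) and the costimulator CD80 (2.20-fold) joined the PD-1 ligands.

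Interferon-stimulated genes were higher in L-428 for 12 of 47 (25.5%) and in L-1236 for IFI44 alone (2.13%). After quantile normalization the counts were 10 and 2, and without replicate 3 of L-428 they were 14 and 1. The median difference of the list was 0.37, and its mean read 8.95, 8.87 and 8.72 in L-428 and 8.35, 8.26 and 8.32 in L-1236. HERC6, an interferon-induced ubiquitin ligase, read 9.64, 9.52 and 9.26 in L-428 and 6.38, 6.31 and 6.33 in L-1236 (8.78-fold). MX2 (6.74-fold), IFIT5 (3.70-fold), GBP4 (3.48-fold) and IFIT3 (3.39-fold) followed. The interferon gamma receptor chain IFNGR1 was 3.50-fold higher in L-428 too. Of 29 pattern recognition receptors, TLR7 (5.57-fold), AIM2 (2.58-fold) and TLR3 (2.05-fold, lost without replicate 2 of L-428) were among 5 higher in L-428, and STING1 (2.86-fold), the cytosolic DNA sensor's adaptor, and NOD1 (2.15-fold) among 3 higher in L-1236.

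**Figure D3:**
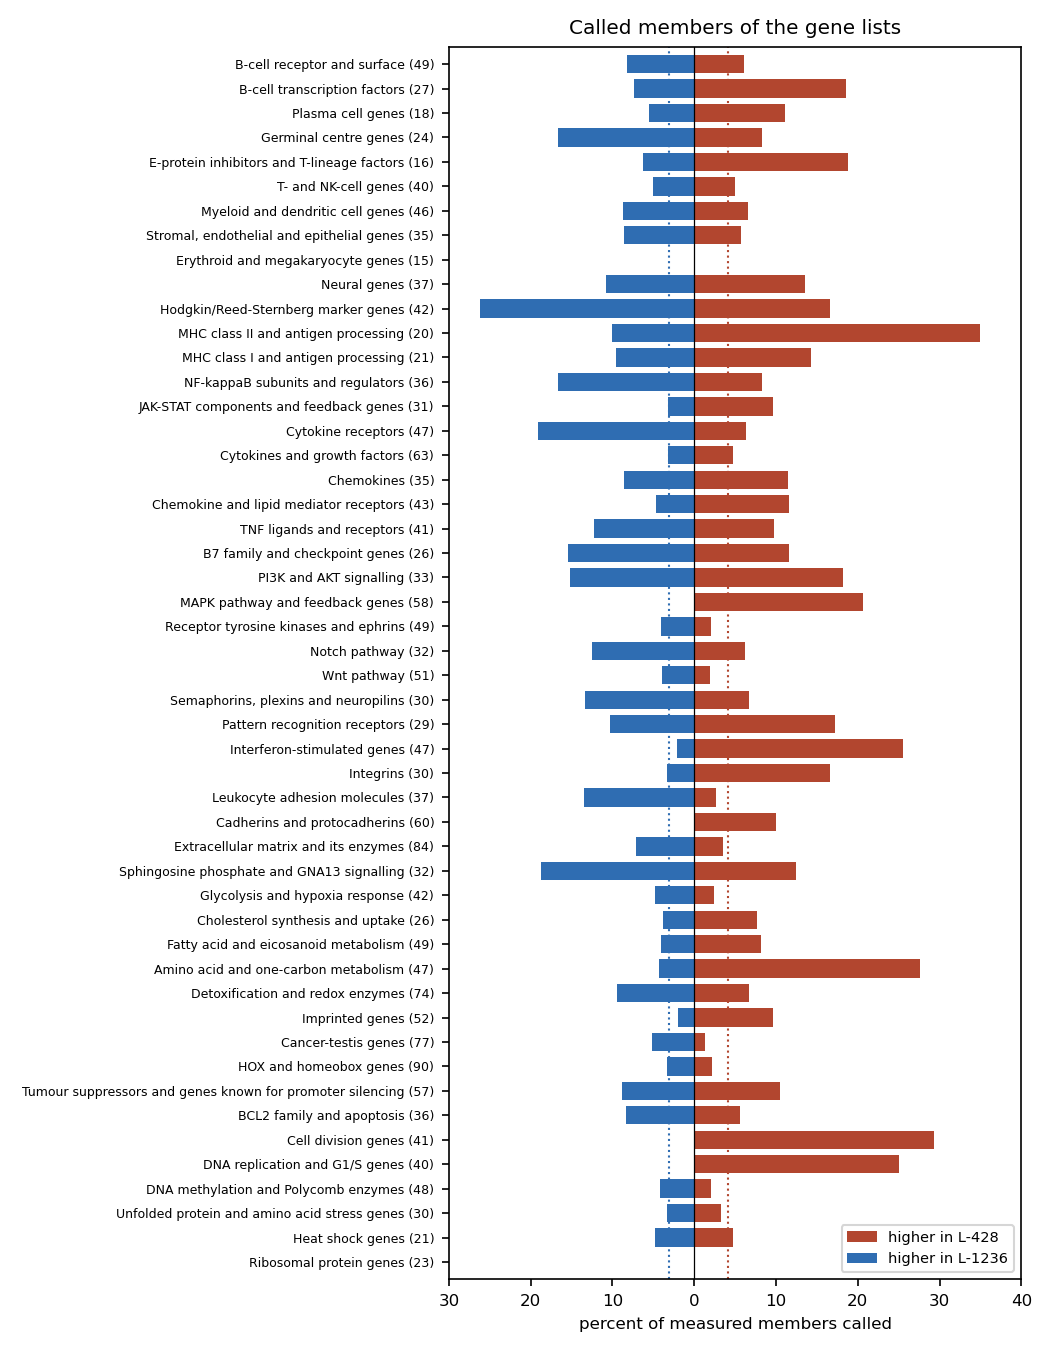
Percent of measured members of each of 50 gene lists that were called higher in L-428 (bars to the right) or higher in L-1236 (bars to the left), with the number of measured members in parentheses. Dotted lines mark the shares over all genes, 4.16% and 3.05%; MHC class II, cell division and amino acid genes reach farthest to the right, and Hodgkin and Reed-Sternberg markers and cytokine receptors farthest to the left.

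Cytokine receptors were called more often in L-1236, 9 of 47 (19.1%) against 3 (6.38%). IL1R1 read 6.24, 6.37 and 6.40 in L-428 and 10.48, 10.46 and 10.50 in L-1236. The growth hormone receptor GHR (7.84-fold), IL20RB (4.05-fold), the common beta chain CSF2RB (3.64-fold), the IL-33 receptor IL1RL1 (3.41-fold) and IL10RA (2.70-fold) were also higher there. CRLF2, the receptor chain for thymic stromal lymphopoietin, was 5.92-fold higher in L-428, as were IFNGR1 and IL2RB. Of 63 cytokines and growth factors, 5 were called: GDF15 (7.22-fold) and IL6 in L-1236, and IL5, LGALS1 and IL32 (2.28-fold) in L-428. These shares, 4.76% higher in L-428 and 3.17% in L-1236, were near those over all genes, 4.16% and 3.05%.

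Chemokines set the lines apart by a few strong genes, 4 and 3 of 35. CCL1, which attracts T cells through CCR8, read 11.91, 11.98 and 11.60 in L-428 and 8.32, 8.20 and 8.24 in L-1236 (11.9-fold, limma adjusted p = 2.20e-17). CCL2, which attracts monocytes, read 7.01, 6.89 and 6.87 against 10.70, 10.66 and 10.67 (13.5-fold, limma adjusted p = 7.21e-18). The membrane-bound CX3CL1 was 8.41-fold higher in L-428. The CCR4 ligands were divided, with CCL17 higher in L-428 and CCL22 higher in L-1236 (2.99-fold), and CCR4 itself was 3.92-fold higher in L-428. Among 43 receptors for chemokines and lipid mediators, GPR183 (EBI2, 5.62-fold), S1PR1 (3.91-fold), CXCR3 (2.44-fold) and PTGER4 (2.37-fold) were higher in L-428, and both cysteinyl leukotriene receptors, CYSLTR2 and CYSLTR1 (5.26-fold), in L-1236.

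TNF family genes and NF-kappaB regulators went in both directions. TNFSF10 (TRAIL), a death ligand, read 11.60, 11.60 and 11.28 in L-428 and 8.72, 8.68 and 8.66 in L-1236 (log2 difference 2.81), and its receptor TNFRSF10A was 2.48-fold higher in L-428. TNF was 2.44-fold higher in L-1236, next to LTA. Of 36 NF-kappaB genes, 3 were higher in L-428: MAP3K14 (NIK), the kinase of the alternative pathway (3.37-fold), TRAF1, and the inhibitor TNFAIP3 (A20), which read 12.19, 12.42 and 11.94 against 10.33, 10.25 and 10.29 (3.70-fold). The 6 higher in L-1236 were TNIP3 (2.52-fold), TNIP2 (2.35-fold), MALT1 (2.20-fold), TRAF5 (2.20-fold), BIRC2 (2.16-fold) and NFKBIE (2.08-fold). NFKBIA, TRAF3 and CYLD, other brakes of the pathway, differed by -0.23, 0.05 and 0.11 on the log2 scale and did not pass (limma adjusted p = 0.0507, 0.563 and 0.302). Of 31 JAK-STAT genes, STAT4 (6.83-fold), MYC (2.17-fold) and PIM1 (2.04-fold) were higher in L-428, the last 2 not after quantile normalization and PIM1 not without replicate 2 of L-428, and the phosphatase PTPRC (CD45, 2.29-fold) in L-1236. STAT4 read 9.63, 9.56 and 9.39 against 6.73, 6.89 and 6.64, the last 3 in the olfactory range. The inhibitors SOCS1 and PTPN1 stayed below 2-fold at log2 differences of 0.76 and 0.64.

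PI3K and AKT genes differed in 11 of 33, 6 higher in L-428 (18.2%) and 5 in L-1236 (15.2%). Catalytic subunits were called in both directions. Alongside PIK3CG, PIK3C2G (5.75-fold) and PIK3CB (2.28-fold) were higher in L-428, and so were the lipid phosphatases INPP4B (5.04-fold) and INPP4A (2.32-fold). PIK3R5, the regulatory partner of the gamma subunit, read 6.94, 6.89 and 6.97 in L-428 and 8.50, 8.50 and 8.52 in L-1236 (2.98-fold higher in L-1236). The other partner, PIK3R6, was 2.02-fold higher in L-1236, a call lost under both other scalings and without replicate 1 of L-428 or replicate 2 or 3 of L-1236, at -0.97, -0.99 and -0.99. The kinase SGK1 (3.70-fold) and PIK3C2B (2.16-fold) were also higher in L-1236.

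MAPK pathway and feedback genes were called in 12 of 58, all higher in L-428 (20.7%); after quantile normalization 11 were higher in L-428 and 1 in L-1236. The list's median difference was 0.06, and the adjusted p alone passed 22 members higher in L-428 and 15 higher in L-1236. RASGRP3, an activator of RAS downstream of the B-cell receptor, read 9.64, 9.65 and 9.27 in L-428 and 6.30, 6.19 and 6.39 in L-1236 (9.39-fold). The phosphatases DUSP6 (5.55-fold), DUSP4 (4.35-fold) and DUSP1 (3.29-fold) and the inhibitor SPRY2 (3.26-fold), genes that ERK activity is known to induce, and the stress kinase MAP3K5 (3.70-fold) went the same way. The receptor tyrosine kinase MET read 12.43, 12.62 and 12.18 in L-428 and 9.52, 9.59 and 9.64 in L-1236 (7.10-fold, limma adjusted p = 3.97e-15). It was the 1 of 49 receptor kinase and ephrin genes that was higher in L-428, and EFNB2 (5.41-fold) and ERBB4 (2.86-fold) were higher in L-1236.

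In the Notch pathway the ligands parted, JAG1 higher in L-428 (2.92-fold) and JAG2 in L-1236 (2.46-fold). The Notch-modifying enzyme MFNG (3.88-fold), the target HEY1 (3.07-fold) and the co-activator MAML3 (2.90-fold) were higher in L-1236, giving 2 and 4 of 32. Of 51 Wnt genes, LRP6 was higher in L-428 (3.05-fold), and WNT5B (3.08-fold) and AXIN2 (2.22-fold) in L-1236. Of 30 semaphorins, plexins and neuropilins, SEMA4A (4.03-fold), SEMA7A (3.63-fold) and SEMA4D (2.22-fold, with a second row at -0.29 on the log2 scale) were among 4 higher in L-1236, and SEMA5A (2.76-fold) was 1 of 2 higher in L-428.

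Adhesion genes were called in both directions. Of 30 integrin genes, 5 were higher in L-428 (16.7%), among them ITGAL, the alpha chain of LFA-1, at 8.88, 8.83 and 8.70 against 6.62, 6.64 and 6.77 (4.37-fold), and ITGA6 (log2 difference 1.59). ITGA3 was 2.11-fold higher in L-1236. Without replicate 3 of L-428, 4 integrin genes were higher in L-428, because ITGA2 then differed by 0.998; ITGA2 and ITGAX lost their calls without other arrays too. ICAM3, a ligand of LFA-1, read 9.89, 9.67 and 9.37 in L-428 and 6.91, 6.62 and 6.44 in L-1236 (7.92-fold), and it was the 1 of 37 leukocyte adhesion genes called higher there (2 without replicate 3 of L-428). CD44, PECAM1, VCAM1 (2.65-fold), CD82 (2.61-fold) and CD99 (2.33-fold) were higher in L-1236, 5 of 37 (13.5%), while the adjusted p alone passed 12 of the 37 higher in L-428 and 9 higher in L-1236.

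Cadherins and protocadherins were called in 6 of 60 genes, all higher in L-428 (10%), and 43 of the 60 were in the olfactory range in both lines. CDH8, a cadherin of neurons, read 10.58, 10.56 and 10.39 in L-428 and 6.46, 6.56 and 6.18 in L-1236 (17.3-fold, limma adjusted p = 6.36e-18). CDH18 (3.41-fold) and the clustered PCDHB14 (3.72-fold), PCDHB9 (2.45-fold) and PCDHB8 (2.06-fold, lost without replicate 1 of L-428) followed, with the caution that the PCDHB genes resemble each other closely in sequence. Of 84 matrix genes, 3 were higher in L-428, LAMC1 (4.14-fold), EXT1 (log2 difference 1.58) and TNC (2.70-fold). The 6 higher in L-1236 were led by SULF1 and by the protease MMP7, which read 6.24, 6.38 and 6.31 in L-428 and 9.83, 10.03 and 10.19 in L-1236 (13.1-fold), and included COL12A1 (3.17-fold), SDC3 (2.70-fold), FN1 (2.55-fold) and NDST1 (2.47-fold).

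Genes of sphingosine phosphate and GNA13 signalling differed in 10 of 32, 4 higher in L-428 (12.5%) and 6 in L-1236 (18.8%), beside 4.16% and 3.05% over all genes. GNG11, a G-protein gamma subunit, read 9.90, 9.92 and 9.39 in L-428 and 6.23, 6.25 and 6.01 in L-1236 (11.9-fold). The small GTPase RHOH (4.10-fold), S1PR1 and GPR183 were also higher in L-428. The regulators of G-protein signalling RGS13, RGS16 (4.80-fold) and RGS2 (2.46-fold), the Rac regulator ARHGAP25 (5.85-fold), the lyase SGPL1 (2.74-fold) and GNA15 (2.34-fold) were higher in L-1236.

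Amino acid and one-carbon metabolism held the largest share of calls among the 5 metabolic lists. Of 47 genes, 13 were higher in L-428 (27.7%) and 2 in L-1236 (4.26%), with a median difference of 0.35. The counts were 10 and 2 after quantile normalization and 16 and 2 without replicate 3 of L-428. The mean of the list read 9.34, 9.35 and 9.17 in L-428 and 8.71, 8.67 and 8.69 in L-1236. PHGDH, the enzyme that commits glycolytic carbon to serine, read 11.79, 11.84 and 11.47 in L-428 and 7.39, 7.37 and 7.41 in L-1236 (19.8-fold, limma adjusted p = 1.03e-17). Downstream of it, the serine to glycine enzyme SHMT1 (4.46-fold) and the glycine-cleaving GLDC (5.16-fold) were higher in L-428, as were the arginine-making ASS1 (7.15-fold) and the carriers SLC38A1 and SLC1A4 (4.29-fold). ASS1 read 10.47, 10.27 and 10.08 against 7.55, 7.36 and 7.39. KMO of the kynurenine pathway (5.58-fold) and DDAH2 (2.29-fold, with a second row at -0.67 on the log2 scale) were higher in L-1236.

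Other metabolic groups held fewer differences. Glycolysis and hypoxia genes were called in 3 of 42, with ALDOC (3.77-fold) and the hypoxia factor EPAS1 (3.58-fold) higher in L-1236 and PFKFB3 (2.09-fold) in L-428, where 2 were called without replicate 3 of L-428. Of 26 cholesterol genes, DHCR7 (2.36-fold) and STARD4 (2.16-fold) were higher in L-428 and LRP1 (2.06-fold) in L-1236. In fatty acid and eicosanoid metabolism the desaturase FADS1 read 9.58, 9.62 and 9.23 in L-428 and 6.83, 6.60 and 6.68 in L-1236 (6.84-fold), and the phospholipase PLA2G4A, which frees arachidonic acid, was 2.15-fold higher in L-428. ALOX15, which oxidises it, was higher in L-1236. Detoxification enzymes went 5 and 7 of 74. GSTM1, a glutathione transferase, read 8.54, 8.60 and 8.41 against 11.76, 11.58 and 11.57 (8.68-fold higher in L-1236), though GSTM genes have near-identical copies. CYP1B1 (10.0-fold) was also higher in L-1236, while the drug exporters ABCG2 (4.18-fold) and ABCB1 (3.86-fold) and NQO2 (3.50-fold) were higher in L-428 and NQO1 (2.67-fold) in L-1236.

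Most members of the imprinted SNORD116 cluster were higher in L-428. SNORD116 and SNORD115 are small nucleolar RNAs cut from the introns of 1 long transcript that starts at the SNURF-SNRPN promoter and is made from the paternal allele. Of 20 SNORD116 genes with a row, 14 were higher in L-428 (70%) and none in L-1236, and the median log2 difference was 1.53. All 20 lay in the olfactory range in L-1236, where single arrays read 4.90 to 6.59, and in L-428 they spread from 5.30 to 12.46. SNORD116-14 read 11.49, 11.73 and 11.13 in L-428 and 5.72, 5.06 and 5.66 in L-1236 (62.7-fold, the largest difference of any named gene; limma adjusted p = 2.29e-16). SNORD116-15 (50.7-fold), SNORD116-20 (50.2-fold), SNORD116-24 (29.6-fold), SNORD116-21 (17.8-fold) and SNORD116-1 (10.1-fold) followed, and 6 of the 20 (SNORD116-10, SNORD116-12, SNORD116-16, SNORD116-25, SNORD116-26 and SNORD116-28) lay in the olfactory range in both lines. The copies are similar in sequence, and rows may share signal. SNORD116-27 (2.14-fold) lost its call without replicate 1 of L-1236, at 0.98, and SNORD116-26, at 1.97-fold, gained one under 6 alternatives.

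**Figure D4:**
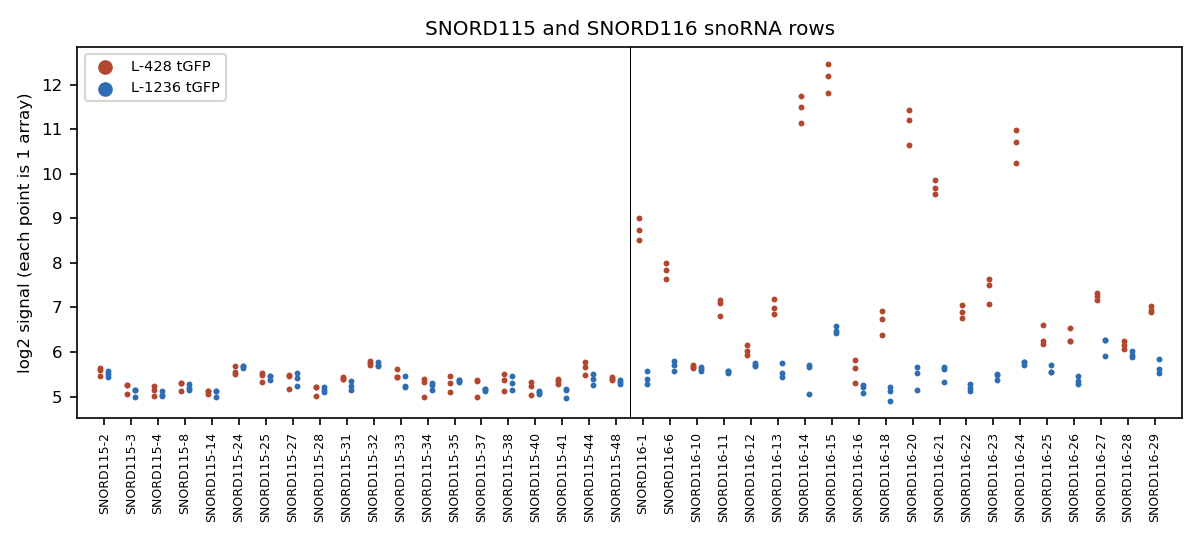
Log2 signal of each array (y axis) for 20 SNORD115 and 20 SNORD116 rows (x axis); each point is 1 array. SNORD116-14, SNORD116-15, SNORD116-20 and SNORD116-24 exceed 10 on all 3 L-428 arrays, while every L-1236 point lies below 7 and the SNORD115 rows of both lines lie between 4.98 and 5.80.

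SNORD115, further along the same transcript, was in the olfactory range in both lines for all 20 rows, with 0 of 20 called in limma and log2 differences from -0.09 to 0.26; the adjusted p alone passed 2 and the unadjusted p under 0.05 passed 4. The start of the host transcript is shown because its CG sites carry the parental methylation that sets which allele is read. The window (chr15:24954737-24955036, plus strand, GRCh38.p14, CG in capitals) holds 18 CG.
SNURF: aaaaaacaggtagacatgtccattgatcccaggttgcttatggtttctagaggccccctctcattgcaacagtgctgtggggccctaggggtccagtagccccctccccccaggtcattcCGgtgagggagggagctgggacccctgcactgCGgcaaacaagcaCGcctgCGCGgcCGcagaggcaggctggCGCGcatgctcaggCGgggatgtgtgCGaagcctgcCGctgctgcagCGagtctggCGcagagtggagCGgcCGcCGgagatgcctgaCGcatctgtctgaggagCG
Of 52 imprinted genes measured outside these snoRNA families, 5 were higher in L-428 (9.62%) and 1 in L-1236 (1.92%). Among the 5, PEG10 read 11.40, 11.57 and 11.06 against 9.99, 9.94 and 10.04 (2.55-fold), TFPI2 8.75, 8.97 and 8.62 against 6.31, 6.65 and 6.50 (4.89-fold), and CRYBG1 differed 4.52-fold.

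Of 57 tumour suppressors and genes known for promoter silencing in cancer, 6 were higher in L-428 (10.5%) and 5 in L-1236 (8.77%). TUSC3 read 6.52, 6.28 and 6.51 in L-428 and 10.33, 10.33 and 10.47 in L-1236 (15.3-fold, limma adjusted p = 1.08e-17), and RASSF4 (3.13-fold), CDKN1A (2.46-fold) and RASSF5 (2.34-fold) were also higher there. MTAP, next to CDKN2A, read 8.45, 8.44 and 8.23 in L-428 and 6.89, 6.77 and 6.89 in L-1236 (2.88-fold, L-1236 in the olfactory range), and PTPRK was 2.53-fold higher in L-428. CDKN2A itself read 8.62, 8.61 and 8.34 against 8.90, 8.76 and 8.89, a log2 difference of -0.32. Of 77 cancer-testis genes, 59 were in the olfactory range in both lines, TEX15 was higher in L-428 (2.75-fold), and SYCP2 (5.50-fold), PIWIL4 (2.68-fold) and PRAME (2.06-fold) in L-1236. The list also held TUSC3, given above among the tumour suppressors, and its call in L-1236 is not read here as that of a testis gene. PRAME lost its call without replicate 3 of L-428, at -0.95, and under median centring and array weights. HOX and homeobox genes were called in 5 of 90, with 2.22% higher in L-428 and 3.33% in L-1236, beside 4.16% and 3.05% over all genes. HOXD10 (5.24-fold), HOXD11 (2.84-fold) and LHX9 (9.52-fold) were higher in L-1236. HOXD8 (2.70-fold) and HOXC8 (2.01-fold, lost without replicate 2 of either line, at 0.97 and 0.96) were higher in L-428. Within the HOXD cluster the lines thus differed in opposite directions. Of 48 DNA methylation and Polycomb genes, PCGF6 (2.76-fold, with a second row at 0.87 on the log2 scale) was the 1 called higher in L-428 (2 without replicate 3 of L-428), and KDM5B (2.90-fold) and PHF19 (2.79-fold) in L-1236.

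Zinc finger genes were called mostly in L-1236: of 480 measured ZNF genes, 32 were higher in L-1236 (6.67%) and 7 in L-428 (1.46%), against 3.05% and 4.16% over all genes. Many ZNF genes resemble each other closely. Of 189 rows named MIR, 3 were called, all higher in L-1236 (1.59%, below the 3.05% over all genes), and 131 were in the olfactory range in both lines.

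CG counts of the promoter windows were compared over 14228 genes with a window; where RefSeq lists several starts the one listed first was used, which applies to 3738 of them. The median was 24 CG for genes higher in L-428, 23 for genes higher in L-1236 and 23 for all genes. It was 18 for the genes higher in L-428 whose level in L-1236 was in the olfactory range, and 20 for the reverse. Both lay between the genes above that range on all 6 arrays, with a median of 26, and the genes within it on all 6, with a median of 7. Floor-to-high differences were found at windows with few CG, such as THEMIS and FCER1A with 0 and SAMSN1 with 2, and at windows with many, such as CDH8 with 24 and SYCP2 with 41. Of windows with 0 to 3 CG, 5.27% belonged to called genes, of those with 4 to 9, 7.85%, with 10 to 19, 6.67%, and with 20 to 60, 7.83%. Genes in the olfactory range in both lines made up 69.7%, 46.9%, 25.5% and 13.1% of these windows, in the same order. A CG count describes the reference sequence and says nothing of methylation in these cells.

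Cell division genes were higher in L-428 in 12 of 41 (29.3%) and in none lower; the median difference was 0.72, and 37 of 41 passed the adjusted p in that direction. The list mean read 10.07, 10.09 and 9.90 in L-428 and 9.21, 9.28 and 9.36 in L-1236. AURKB, a kinase of chromosome segregation, read 11.26, 11.39 and 11.16 against 9.65, 9.65 and 9.71 (3.04-fold). KIF20B (2.67-fold), PTTG1 (2.59-fold), CDK1 (2.44-fold), TTK (2.33-fold) and DLGAP5 (2.32-fold) followed. Without replicate 3 of L-428 the count was 15, and after quantile normalization it was 8. Of 40 replication and G1/S genes, 10 were higher in L-428 (25%), among them MCM4 (2.83-fold), E2F7 (2.61-fold), MCM10 (2.59-fold) and TK1 (2.39-fold), with a median of 0.48. After quantile normalization 8 of these 40 were higher in L-428 and 1 in L-1236. None of 23 ribosomal protein genes was called in limma, although the adjusted p alone passed 12 higher in L-428 and 2 higher in L-1236, and the unadjusted p 15 in all, RPL3 at 1.52-fold and RPL4 at 1.51-fold among them.

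CDKN1A, an inhibitor of cyclin-dependent kinases, read 7.91, 7.83 and 7.91 in L-428 and 9.19, 9.18 and 9.17 in L-1236, where it was higher. In the BCL2 family the inhibitor BCL2L10 read 9.72, 9.73 and 9.41 in L-428 and 6.68, 7.11 and 6.80 in L-1236 (6.74-fold). The apoptosis promoters BCL2L11 (BIM, 5.14-fold) and BID (2.18-fold) were higher in L-1236. Heat shock genes were called in 2 of 21, HSPB1 higher in L-1236 (3.32-fold) and HSPA4L in L-428 (2.60-fold), and unfolded protein genes in 2 of 30, 1 in each direction (3 higher in L-428 without replicate 3 of L-428).

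Some differences covered neighbouring genes. In the RefSeq order of 18353 measured genes there were 18 runs of at least 3 neighbours called in the same direction, 11 higher in L-428 and 7 higher in L-1236, holding 63 genes. The longest, of 6, and another of 3 were SNORD116 copies. In L-428 CAV1 (4.18-fold), MET and CAPZA2 (2.23-fold) formed a run, with CAV1, the scaffold of caveolae, at 11.88, 12.08 and 11.58 against 9.72, 9.81 and 9.83. ELOVL4 (2.53-fold), TTK, BCKDHB (5.48-fold), TENT5A (3.56-fold) and IBTK (2.12-fold) formed a run of 5, and so did ANXA1 (2.79-fold), RORB (2.24-fold), TRPM6 (3.48-fold), C9orf40 (2.10-fold) and CARNMT1 (2.28-fold). CHFR (2.29-fold), a mitotic checkpoint gene, was higher in L-428 with its neighbours ZNF605 and ZNF26.

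In L-1236, IL6 lay in a run with its antisense neighbour IL6-AS1 (2.81-fold), STEAP1B (2.24-fold) and HYCC1 (2.14-fold). IL6 read 8.49, 8.42 and 8.24 in L-428 and 10.68, 10.57 and 10.59 in L-1236. ETS1 lay in a run with the ETS factor FLI1 (2.15-fold) and KCNJ1 (3.25-fold), MALT1 with ALPK2 (3.04-fold) and ZNF532 (4.56-fold), and the interleukin-5 receptor chain IL5RA (2.17-fold) with TRNT1 (2.02-fold, lost without replicate 2 of L-428 or replicate 3 of L-1236) and CRBN (2.25-fold), the cereblon gene. OLR1 (5.82-fold), TMEM52B (9.55-fold) and GABARAPL1 (2.34-fold) and the zinc finger genes ZNF600, ZNF28, ZNF468 and ZNF320 formed others, ZNF468 at 2.03-fold and lost without replicate 2 of L-428 or replicate 1 or 3 of L-1236.

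The tGFP/EBF1 arrays, which share no array with this comparison, gave the line difference a second time in EBF1-transduced cells. There, 1571 rows were called between the lines (7.65%). Of the 1479 rows called in the control cells, 1230 were called again (83.2% of them, and 78.3% of the 1571), all in the same direction, and 1477 had the same sign. Over the called rows the log2 differences of both comparisons correlated at 0.983 (Pearson, across rows of the same lines and platform; rows are not independent). Called rows were selected for a large difference in the control cells, which raises this value. Over all tested rows the correlation was 0.953. SULF1 differed by -5.65 in control cells and -5.80 with EBF1, LRRN3 by 5.87 and 5.63, PIK3CG by 5.06 and 4.73, AOAH by -4.95 and -5.11, and PHGDH by 4.31 and 4.51.

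The difference of differences, which tests whether a line difference depended on EBF1, passed the adjusted p in 1061 rows (5.16%) and in 285 of the called rows (19.3%). It reached 2-fold in 32 rows (0.156%), 15 of them among the called rows. The 2 called rows whose sign turned were EBF1, the gene that was introduced, and the anion exchanger SLC26A4. SLC26A4, chosen here after its values were seen, differed by -2.61 in control cells and 0.52 with EBF1. RUNX1 (2.09 and 1.09) and BCL6 (1.23 and 0.56) among the B-cell factors differed less with EBF1 (limma difference of differences, adjusted p = 9.22e-06 and 8.86e-04), and so did PAX5 (3.57-fold and 2.82-fold, adjusted p = 0.0246).

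**Figure D5:**
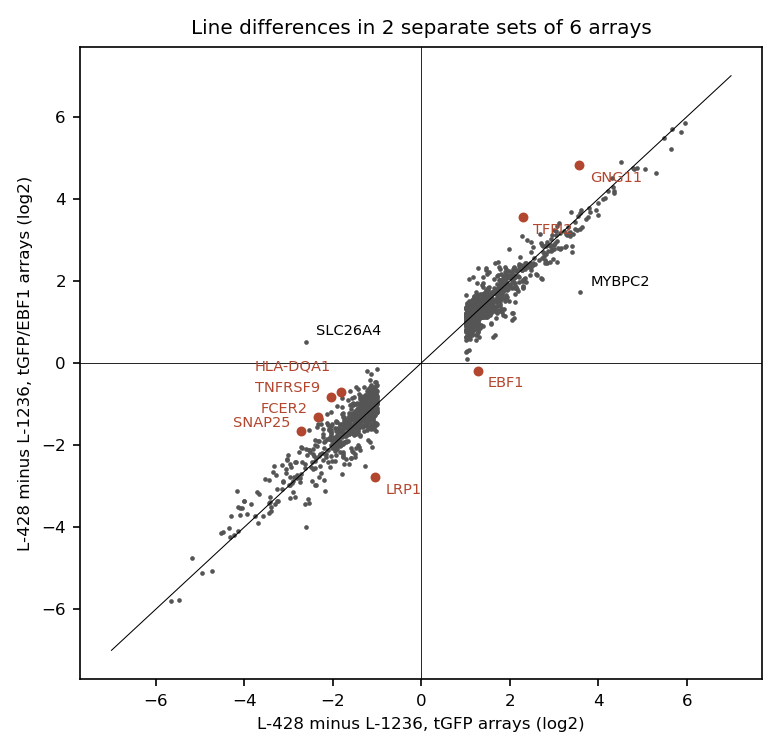
Log2 difference L-428 minus L-1236 of each of the 1479 called rows in the tGFP arrays (x axis) and in the tGFP/EBF1 arrays (y axis); each point is 1 row and the line marks equality. Most points follow the line (Pearson r of 0.983 over these called rows and 0.953 over all tested rows). EBF1 and SLC26A4 lie on the other side of 0, and the named red genes changed their line difference by at least 2-fold.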

How the data were processed

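Gene expression was measured on 12 Affymetrix whole-transcript arrays in 4 groups of 3, of which the 6 tGFP arrays are compared here. The authors deposited 1 log2 value per array and row; how they were summarized and normalized, the log base and the array's genome build are not stated in what was used here, and base 2 was inferred from the range of the values. Of 32321 rows, the 20546 with a gene symbol in GEO's platform annotation were tested and 11775 without one were not; only rows with a single symbol name a gene. EBF1 is the exception: PDGFRB shares its row, but the 3 RefSeq accessions listed there all belong to EBF1.

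These deposited log2 values were not rescaled. A model of 4 group means with no block was fitted with lmFit and eBayes (limma 3.58.1, R 4.3.3) and tested on simulated data, and p-values were adjusted by Benjamini-Hochberg over all tested rows. Calls required at least a 2-fold difference together with an adjusted p no higher than 0.05, the limits that the series design text states for the EBF1 comparisons. The number of arrays limits the precision. A gene with several rows is given by its brightest. Named genes are the 12 largest differences in each direction, the 4 markers, up to 6 called members per list and direction (or 2 by adjusted p where none was called), 24 genes always named where they have a row of their own, the SNORD115 and SNORD116 families and the genes of runs. The comparison, the 51 gene lists (1892 of 2134 symbols measured), families and naming rule were chosen with earlier results of these data known, so their counts are descriptions without a test. The result of 1 list is not reported here. Replicate numbers are shared between groups, but deviations of same-numbered arrays of the lines correlated at -0.10, -0.05 and -0.16, so the numbers were not taken as pairs. Alternatives were other scalings, filters, row choices, variance models, weights, thresholds, a replicate block and each array left out. Promoter sequences are from RefSeq, GRCh38.p14. Python 3.11.15 with matplotlib 3.10.9 drew the figures.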

Additional observations from a re-analysis of the deposited data

Results flagged for a closer look

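For 8 named genes the difference between the lines itself differed between control cells and EBF1-transduced cells, by at least 2-fold in the limma difference of differences (L-428 minus L-1236 with EBF1, less the same in control cells). EBF1 changed by -1.46 on the log2 scale (adjusted p = 1.15e-07), from 1.27 to -0.19. This gene is the one introduced, and with EBF1 its row mean was 12.96 in L-428 and 13.15 in L-1236. In control cells the row means were 8.45 and 7.17. LRP1 changed by -1.73, from -1.04 to -2.78, so that its excess in L-1236 was larger with EBF1. GNG11 changed by 1.25 (3.58 to 4.82) and TFPI2 by 1.26 (2.29 to 3.55), both with a larger excess in L-428. FCER2 changed by 1.01 (-2.32 to -1.31), HLA-DQA1 by 1.10 (-1.81 to -0.70), TNFRSF9 by 1.23 (-2.05 to -0.82) and SNAP25 by 1.06 (-2.71 to -1.65), each with a smaller excess in L-1236. What these changes came from was not tested.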

How the results depend on the processing

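The count of called rows, 1479, lay between 1405 and 1689 under other scalings, filters, row choices, variance models and array weights, and between 1432 and 1598 with 1 array left out; the highest of these was without replicate 3 of L-428, with 988 rows higher in L-428 and 1446 shared with the full set. It was 3723 at a 1.5-fold limit and 321 at a 4-fold limit. The share of calls higher in L-428, 57.8%, was 52.2% after quantile normalization and 63.2% after median centring. The count of rows whose line difference depended on EBF1, 1061, was 1865 after quantile normalization and 599 after median centring; the cause was not tested. With the replicate number as a block, 1479 rows were called, 9658 passed the adjusted p alone and 885 passed the difference of differences, and no named gene changed its call, but the numbers did not pair the arrays. Of 347 named genes that were called, 35 lost the call under at least 1 alternative, each at a difference close to 2-fold, 1 uncalled gene gained one, and none reversed. Besides those named in the report, calls lost when 1 array was left out were those of BIRC5, CD27, CISD1, HES7, KLF6, MAP2, NLRP2, PLXNC1, SEMA6A, SLC16A10 and XAF1. Counts of called list members under 3 settings, added after the data were seen, moved by over 1.5 times in 19 of 306 comparisons. The default array weights did not converge (1568 calls), and gene-by-gene weights, also added, gave 1581.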

Other observations

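Rows without a gene symbol were not part of the comparison. Of 11775 such rows, 210 passed the same limits in limma (1.78%), 87 higher in L-428 and 123 higher in L-1236. The muscle gene MYBPC2, chosen after its values were seen, read 10.41, 10.55 and 10.29 in L-428 and 6.80, 6.73 and 6.95 in L-1236, and its difference of 3.59 on the log2 scale was 1.73 in the EBF1-transduced cells. Of 133 snoRNA genes outside the SNORD115 and SNORD116 families, 6 were higher in L-428 and 2 in L-1236, with SNORD50A (4.32-fold) and SNORD50B (3.07-fold) beside SYNCRIP (2.14-fold) in a run of neighbours. Of 72 histone genes, 8 were higher in L-428 (11.1%) and 5 in L-1236 (6.94%).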
